A study of Mus musculus with 16 samples.

Results

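Loss of the endoplasmic reticulum (ER) chaperone GRP78 was modeled in dispersed mouse islet cells, and the 8 libraries described here are the 4 labelled Ad-Cre and the 4 labelled Ad-LacZ that received vehicle without an inhibitor, of 16 libraries in all. They were chosen by their treatment labels alone, and each Ad-Cre library was paired with the Ad-LacZ library that carries the same preparation code in its title: F1, M1, M2 or F2, where F and M stand for female and male. All cells were primary islet cells of Grp78 flox/flox mice (the gene is listed as Hspa5), so both alleles were floxed in control and knockdown cultures alike. The islets were dispersed into single cells, transduced with adenovirus expressing LacZ (control) or Cre recombinase (the label of the knockdown), given DMSO, and kept in 15 mM glucose for 72 hours. The other 8 libraries received the same viruses with the pan JNK inhibitor JNK-IN-8 and enter only 1 comparison at the end.

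Several features limit these groups as a model. The labels give no cell-type-restricted promoter for either virus, so every islet cell type could have been transduced. The labels name 2 animal numbers per preparation whereas the study counts 4 adult mice, and it used adult mice over a wide range of ages without giving the age of each preparation. Ad-Cre and Ad-LacZ differ in the transgene as well as in recombination, and without Cre-transduced cells that lack floxed alleles the effects of Cre itself and of the deletion cannot be told apart. The study describes the cultures as already losing some β cells when they were collected.

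GRP78 is the major HSP70-type chaperone of the ER lumen. It binds unfolded secretory proteins and also holds the ER stress sensors PERK, IRE1 and ATF6 inactive, and when the chaperone is short the sensors start the unfolded protein response. ATF6 is cleaved to a transcription factor that induces chaperones, IRE1 splices Xbp1 mRNA to a form that induces ER-associated degradation (ERAD), and PERK slows translation and favors production of ATF4, which induces CHOP, the product of Ddit3. The β cell makes insulin in very large amounts and is known for its dependence on ER folding capacity, and a set of transcription factors (MAFA, PDX1, NKX6-1, NEUROD1 and others) maintains its identity.

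Expression was measured as RPKM, reads per kilobase of gene length with each library scaled to the same number of reads. The column headers of the 8 libraries carry the same prefix and lane code, and the labels do not say what the prefix stands for. The libraries held between 14.2 and 23.8 M (mega) reads, read from the steps between low values. Fold changes are log2 differences of RPKM + 1 after scaling, Ad-Cre against Ad-LacZ, from limma with the preparation as a block, and they understate the change of low genes. A gene was called, and is said below to have risen or fallen, when its Benjamini-Hochberg adjusted p from limma was under 0.05 and its fold change above 1.5. Values per library are RPKM as deposited, given in the order F1, M1, M2 and F2.

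The targeted gene was examined first. Hspa5 (ENSMUSG00000026864) measured 478, 483, 395 and 396 RPKM in Ad-LacZ and 1107, 1114, 1237 and 1598 RPKM in Ad-Cre. All 4 libraries labelled Ad-Cre were above all 4 labelled Ad-LacZ, with means of 1264 ± 231 and 438 ± 49.0 RPKM (SD, n = 4 each). The gene rose (log2 fold change 1.52, SE 0.15, adjusted p = 0.00055). An exact two-sided permutation test over group labels gave p = 0.0286 and an exact sign-flip test over the 4 pairs gave p = 0.125, each the smallest p that its design allows. This direction goes against the knockdown label. A value per gene sums floxed and other exons, so it does not show whether the floxed exons were lost. The study checked the knockdown by other assays in parallel samples, which are not analysed here. Every direction below is that of the libraries labelled Ad-Cre.

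Of 25105 genes listed, 11590 exceeded 1 RPKM in 4 or more libraries and were tested. In the libraries labelled Ad-Cre, 653 genes rose (5.63% of those tested) and 635 fell (5.48%), and 1255 of these 1288 moved the same way in all 4 pairs. Without the block limma called 460 higher (3.97%) and 482 lower (4.16%), all 942 of them among the 1288. By over 2-fold 139 genes rose and 116 fell, and by over 4-fold 13 rose and 4 fell. The ranges of the groups were separate in 27.7% of the genes, with Ad-Cre higher in 11.8% and lower in 15.9%. The median log2 fold change over all genes tested was -0.0032. Counts of list members given below are to be read beside these shares of all genes.

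ER lumen chaperones and their cofactors rose almost as a group. Of 15 listed genes 14 were tested, of which 11 rose, against 5.63% of all genes, and none fell. Their median log2 fold change was 1.43. Within preparations the median was 1.24 (F1), 1.22 (M1), 1.502 (M2) and 1.62 (F2). Creld2, a secreted disulfide-exchange factor of the ER, had the largest rise of the list. It measured 51.7, 55.3, 48.4 and 55.4 RPKM in Ad-LacZ and 496, 508, 658 and 1018 RPKM in Ad-Cre (log2 fold change 3.58, SE 0.15, adjusted p = 2.4e-05), with no overlap between the groups. Sdf2l1, a cofactor of GRP78 that keeps client proteins soluble, measured 74.4, 75.5, 47.6 and 38.2 RPKM in Ad-LacZ and 368, 393, 409 and 553 RPKM in Ad-Cre (log2 fold change 2.89, SE 0.21, adjusted p = 0.00025). Hyou1, the nucleotide exchange factor GRP170, measured 159.6, 169, 125 and 109 RPKM in Ad-LacZ and 481, 470.2, 419 and 567 RPKM in Ad-Cre (log2 fold change 1.79, SE 0.14, adjusted p = 0.00028). In each of these 3 genes the lowest Ad-Cre library was more than 2-fold above the highest Ad-LacZ library.

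Hsp90b1 encodes GRP94, the HSP90 of the ER. It measured 564, 593, 445 and 592 RPKM in Ad-LacZ and 1344, 1485, 1924 and 2530.2 RPKM in Ad-Cre (log2 fold change 1.69, SE 0.17, adjusted p = 0.00055). Calr, the lectin chaperone calreticulin, measured 273, 306, 231 and 303 RPKM in Ad-LacZ and 837, 716, 764 and 962 RPKM in Ad-Cre (log2 fold change 1.55, SE 0.13, adjusted p = 0.00028). Dnajc3, the J-domain protein P58IPK that serves GRP78, measured 81.9, 82.5, 74.1 and 85.3 RPKM in Ad-LacZ and 194, 224, 229.7 and 316 RPKM in Ad-Cre (log2 fold change 1.54, SE 0.12, adjusted p = 0.00025). The groups did not overlap in any of these 3 genes, and F2 was the highest Ad-Cre library in all of them. Manf (1.33), Dnajb11 (1.33), Ppib (0.92) and Dnajb9 (0.74) rose less. Not all members moved. Canx, the membrane-bound partner of calreticulin, had a log2 fold change of 0.47 that passed the adjusted p (0.016) but not the fold. Fkbp2 was at 0.06 (adjusted p = 0.71) and Sil1, a nucleotide exchange factor for GRP78, at -0.31 (adjusted p = 0.094). Clgn was below the filter.

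Promoter sequence was examined for the members of the chaperone, disulfide isomerase and ERAD lists, because their best-known shared element is the ER stress response element, which NF-Y and ATF6 bind. It was searched as CCAAT, 9 bases of any kind and CCACG, on both strands, in the 250 bases before the start site of each RefSeq promoter. It occurred in 37 of 32851 promoters (0.113%). Of 11590 tested genes 9081 had a promoter in the RefSeq table, and 17 of these held the element. Among those 17 genes 9 rose (52.9%), 1 fell and the median log2 fold change was 0.86. Among all 9081 genes 5.24% rose and 5.45% fell. A match is a description of letters and not a measured binding site. Only 78.4% of the genes tested, 78.6% of the chaperone list, 75.0% of the ERAD list and 72.9% of the genes that rose had a promoter in the table, so a share over any of these sets is void as a check of the set and is not used.

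The sequences below show the element in Hspa5 itself, in Hsp90b1, which holds it in 2 places, in the largest rises of the chaperone and ERAD lists, in Syvn1, and in the gene that fell. They are RefSeq sequence of build GRCm38.p6, read 5′ to 3′ on the strand of the gene, with the CCAAT and CCACG parts (or their complements ATTGG and CGTGG) in capitals. Hspa5 is at chr2:34772010-34772058 (plus strand), Hsp90b1 at chr10:86705623-86705671 and chr10:86705518-86705566 (minus strand), Creld2 at chr15:88819505-88819553, Derl3 at chr10:75893227-75893275, Syvn1 at chr19:6046517-6046565 and Ero1lb at chr13:12565667-12565715 (all plus strand). In Hspa5 the element began 65 and ended 47 bases before the start.
Hspa5: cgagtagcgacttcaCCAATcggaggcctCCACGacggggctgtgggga
Hsp90b1 upstream: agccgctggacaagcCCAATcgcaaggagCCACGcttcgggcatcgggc
Hsp90b1 downstream: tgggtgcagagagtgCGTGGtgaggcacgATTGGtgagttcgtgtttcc
Creld2: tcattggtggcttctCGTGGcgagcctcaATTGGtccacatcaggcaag
Derl3: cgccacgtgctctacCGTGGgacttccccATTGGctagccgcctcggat
Syvn1: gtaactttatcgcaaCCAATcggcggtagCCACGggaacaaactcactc
Ero1lb: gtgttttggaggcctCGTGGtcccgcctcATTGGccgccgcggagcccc

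The other 3 members that rose and held the element were Calr, Dnajc3 and Pdia6. Canx held it too without passing the fold, and the fall of Ero1lb went the other way from the remaining members that held it. Outside these lists, Alg12, a mannosyltransferase that builds the N-glycan precursor, held it and rose by 0.86. A shorter variant, ATTGG, 1 base and CCACG, was found in 10 of 32851 promoters and in 6 tested genes, of which Herpud1 and Nucb1 rose. The copy in Herpud1 is at chr8:94386362-94386402 (plus strand), again with the element in capitals.
Herpud1: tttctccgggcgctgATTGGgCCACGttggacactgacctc

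The protein disulfide isomerases and ER oxidases, which form and reshuffle disulfide bonds in secretory proteins, rose in part. Of 15 members, 8 rose, 1 fell and 6 were not called, with a median log2 fold change of 0.59. Pdia4 measured 116, 123, 92.0 and 106 RPKM in Ad-LacZ and 680.5, 688, 957 and 1311 RPKM in Ad-Cre (log2 fold change 3.00, SE 0.18, adjusted p = 0.00011), the fourth largest rise of all genes. Pdia6, which also acts on IRE1, measured 168, 184, 131 and 139 RPKM in Ad-LacZ and 423, 403, 397 and 536 RPKM in Ad-Cre (log2 fold change 1.495, SE 0.13, adjusted p = 0.00037). P4hb and Pdia3, the 2 most abundant members, rose by 1.18 and 1.13. Erp29 (0.78), Txndc5 (0.69), Pdia5 (0.61) and Txndc11 (0.59) rose less.
Ero1lb, the oxidase of the pancreatic ER that recharges disulfide isomerases, went the opposite way and measured 318, 290.5, 219.5 and 219 RPKM in Ad-LacZ and 181, 173, 84.4 and 120.5 RPKM in Ad-Cre (log2 fold change -0.94, SE 0.14, adjusted p = 0.0027). All 4 Ad-Cre libraries were below all 4 Ad-LacZ libraries, but its adjusted p was 0.087 without the block.

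ERAD returns misfolded proteins to the cytosol for destruction, and 6 of its 20 listed genes rose while none fell (median 0.38). Derl3, a derlin of the retrotranslocation channel, had the largest rise of all genes. It measured 2.22, 2.24, 1.13 and 2.08 RPKM in Ad-LacZ and 60.4, 60.5, 108 and 146 RPKM in Ad-Cre (log2 fold change 4.93, SE 0.22, adjusted p = 2.4e-05), so that a gene near the filter in controls exceeded 60 RPKM in every Ad-Cre library. Herpud1, a scaffold of the ERAD ligase, measured 114, 121, 101 and 107 RPKM in Ad-LacZ and 558, 473, 569 and 845 RPKM in Ad-Cre (log2 fold change 2.42, SE 0.15, adjusted p = 0.00011). Sel1l, the partner of that ligase, measured 30.1, 31.3, 28.0 and 26.0 RPKM in Ad-LacZ and 89.2, 102, 128 and 161 RPKM in Ad-Cre (log2 fold change 1.99, SE 0.15, adjusted p = 0.00025). These 3 genes had no overlap between groups and their highest value in F2. Syvn1, the ligase HRD1 itself, measured 26.5, 30.0, 26.3 and 25.7 RPKM in Ad-LacZ and 63.3, 57.5, 69.4 and 83.6 RPKM in Ad-Cre (log2 fold change 1.29, SE 0.12, adjusted p = 0.00038). Edem1, a mannosidase-like factor, rose by 0.71, and Os9, a lectin that delivers substrates, by 0.59 (adjusted p = 0.0063, and 0.13 without the block). A further 5 members passed the adjusted p with smaller rises, and 1 passed it with a negative log2 fold change under the fold.

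The sensors themselves moved less than their targets. Of 10 sensors and processing enzymes 1 rose, and the median was 0.03. The riser was Eif2ak3, which encodes PERK, at 14.9, 16.1, 18.2 and 17.8 RPKM in Ad-LacZ and 24.6, 23.1, 25.4 and 30.5 RPKM in Ad-Cre (log2 fold change 0.60, SE 0.10, adjusted p = 0.0037), with all Ad-Cre libraries above all Ad-LacZ libraries. Ern1 (IRE1) was at -0.16 (adjusted p = 0.21) and Atf6 at -0.17 (adjusted p = 0.20). Total Xbp1 measured 113, 107, 94.6 and 85.0 RPKM in Ad-LacZ and 111, 97.8, 84.9 and 86.8 RPKM in Ad-Cre (log2 fold change -0.07, SE 0.10, adjusted p = 0.63), with overlapping groups. Splicing of Xbp1 is not visible in a value per gene.

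**Figure D1:**
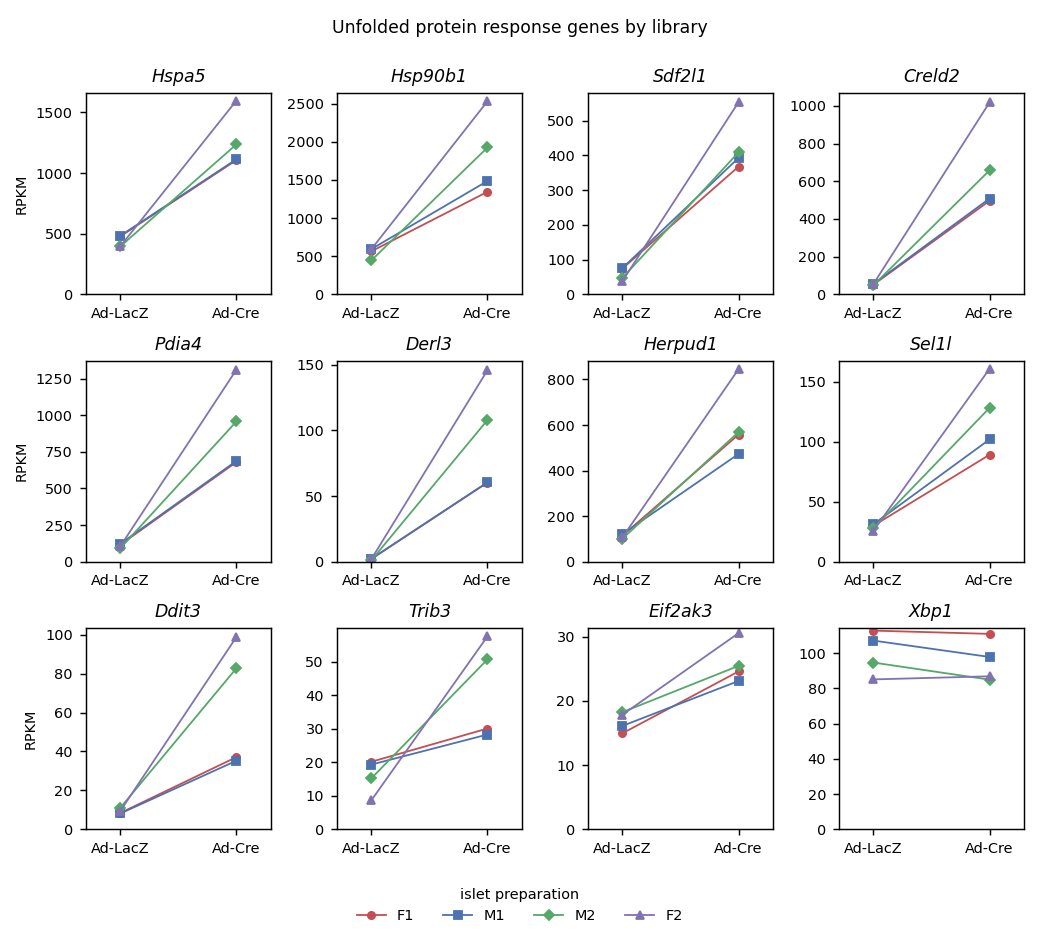
RPKM (vertical axis, linear, from 0) of 12 unfolded protein response genes in Ad-LacZ and Ad-Cre libraries, each line joining the pair of 1 islet preparation. In the first 11 genes all 4 Ad-Cre points lie above all 4 Ad-LacZ points, whereas Xbp1 overlaps.

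In the ATF4 and CHOP branch 9 of 16 tested genes rose and none fell, with a median of 0.64. Ddit3, the death-promoting factor CHOP, measured 8.36, 8.10, 11.0 and 9.43 RPKM in Ad-LacZ and 37.1, 35.3, 82.8 and 98.9 RPKM in Ad-Cre (log2 fold change 2.52, SE 0.18, adjusted p = 0.00021). M2 and F2 reached more than 2 times the level of F1 and M1 in Ad-Cre, while the Ad-LacZ values lay close together. Ppp1r15a, the phosphatase subunit GADD34 that restarts translation, measured 17.980, 18.9, 21.0 and 19.0 RPKM in Ad-LacZ and 44.4, 35.6, 59.9 and 67.3 RPKM in Ad-Cre (log2 fold change 1.34, SE 0.13, adjusted p = 0.00049). Trib3, a pseudokinase target of CHOP, measured 20.1, 19.3, 15.2 and 8.64 RPKM in Ad-LacZ and 30.1, 28.3, 50.7 and 57.6 RPKM in Ad-Cre (log2 fold change 1.34, SE 0.28, adjusted p = 0.0095), again with M2 and F2 above F1 and M1 in Ad-Cre.
The secreted stress cytokine Gdf15 measured 3.50, 2.85, 5.73 and 1.69 RPKM in Ad-LacZ and 9.65, 8.11, 15.6 and 12.3 RPKM in Ad-Cre (log2 fold change 1.52, SE 0.16, adjusted p = 0.00069). Atf3 measured 2.47, 2.36, 4.22 and 1.60 RPKM in Ad-LacZ and 6.05, 4.69, 12.4 and 10.1 RPKM in Ad-Cre (log2 fold change 1.31, SE 0.17, adjusted p = 0.0015). The lowest Ad-Cre library was above the highest Ad-LacZ library in each of these 5 genes. Nupr1 (1.02), Atf5 (0.68), Atf4 (0.66) and Cebpb (0.63) also rose. Chac1, a glutathione-degrading enzyme and a common marker of this branch, was at -0.28 (adjusted p = 0.085). The genes of amino acid supply and tRNA charging, which ATF4 also controls, moved little: 2 of 28 rose (Psat1, serine synthesis, 0.70, and Xpot, tRNA export, 0.67) with a median of 0.23. Over all genes 5.63% rose.

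In later steps of the secretory pathway a few genes rose and most were not called. Of 26 genes of ER translocation and N-glycosylation 4 rose: Stt3b, Sec11a, Sec61a1 and Ssr3, between 0.62 and 0.67, with a list median of 0.34. Of 28 genes of COPII and COPI transport 3 rose, with a median of 0.26. The largest was Kdelr3, a receptor that returns ER residents from the Golgi, at 11.1, 16.2, 17.003 and 14.5 RPKM in Ad-LacZ and 34.7, 31.1, 57.1 and 61.2 RPKM in Ad-Cre (log2 fold change 1.54, SE 0.15, adjusted p = 0.00052), and Mcfd2 (0.89) and Tmed2 (0.81), both cargo receptors, followed. No gene of either list fell, and the share of risers was 5.63% over all genes. Under the fold, 1 of the 26 genes passed the adjusted p with a negative log2 fold change.

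Ribosomal protein genes shifted together by less than 2-fold in most cases. Of 77 tested genes 44 rose and none fell, 68 passed the adjusted p, and all 77 had a positive log2 fold change, with a median of 0.63. Within preparations the median was 0.87 (F1), 0.50 (M1), 0.69 (M2) and 0.43 (F2), so the order of preparations differed from that of the ER genes. Rpl13a had the largest rise, from 62.4, 46.4, 55.6 and 24.3 RPKM to 123, 78.5, 109 and 93.4 RPKM (log2 fold change 1.14, SE 0.16, adjusted p = 0.0022). Rps27 (1.02), Rplp2 (1.01) and Rpl12 (0.99) followed. These genes have many near-identical processed copies that can take a share of their reads, so their single values are uncertain. The list median was 0.63 with the RPKM as deposited and 0.52 with quantile normalization. Of 24 MYC targets and ribosome biogenesis genes 4 rose (Rrp9 0.93, Odc1 0.83, Srm 0.78 and Nop56 0.70), and of 31 proteasome subunits 1 rose, Psmb4 (0.61, adjusted p = 0.085 without the block). Over all genes 5.63% rose.

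Genes of cell death were mostly flat, apart from a few p53 and BH3-only genes. Cdkn1a, the cell cycle inhibitor p21, was the strongest of 20 genes of the p53 list. It measured 50.7, 49.5, 98.1 and 60.1 RPKM in Ad-LacZ and 212, 171, 246 and 236 RPKM in Ad-Cre (log2 fold change 1.77, SE 0.15, adjusted p = 0.00028), and the groups did not overlap. Phlda3 (0.80), an AKT repressor, and Pidd1 (0.59), a death-domain adaptor, also rose with the block, but their groups overlapped and neither passed without it (adjusted p = 0.15 and 0.072). Trp53 itself measured 8.02, 8.89, 12.0 and 8.77 RPKM in Ad-LacZ and 12.0, 11.0, 16.4 and 14.3 RPKM in Ad-Cre (log2 fold change 0.47, adjusted p = 0.0076), which is under the fold. None of the 20 fell by the fold, and the list median was 0.18 with a lowest value of -0.55. Regardless of fold, 7 members passed the adjusted p with a positive log2 fold change and 3 with a negative one. The groups were separate with Ad-Cre higher in 2 members and lower in 2, against 11.8% and 15.9% of all genes tested.
Of 13 tested members of the BCL2 family 2 rose, both BH3-only killers. Bbc3 (PUMA) measured 4.21, 4.08, 6.26 and 2.67 RPKM in Ad-LacZ and 7.23, 6.69, 8.84 and 9.17 RPKM in Ad-Cre (log2 fold change 0.79, SE 0.15, adjusted p = 0.0062). Pmaip1 (NOXA) measured 1.40, 1.23, 3.12 and 2.82 RPKM in Ad-LacZ and 1.35, 1.79, 9.94 and 5.52 RPKM in Ad-Cre (log2 fold change 0.61, SE 0.19, adjusted p = 0.038), with overlapping groups, a value in F1 no higher in Ad-Cre than in Ad-LacZ, and an adjusted p of 0.34 without the block. Bax passed the adjusted p under the fold (0.55, adjusted p = 0.0071), Bcl2l1 was at 0.10 (adjusted p = 0.44), and Bcl2 was below the filter. Of 19 caspases, death receptors and adaptors 1 rose, the TWEAK receptor Tnfrsf12a (0.95), although its groups overlapped. That count stands beside a rise of 5.63% of all genes.

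The AP-1 family and other immediate-early genes were examined because the study also blocked JNK, the kinase that phosphorylates JUN. Of 11 tested genes 4 rose: Mafk (0.85), Egr1 (0.83), Ier3 (0.71) and Junb (0.70). Egr1 and Mafk did not overlap between groups whereas Ier3 and Junb did. Jun measured 16.7, 15.7, 28.6 and 22.2 RPKM in Ad-LacZ and 17.3, 16.6, 31.2 and 22.5 RPKM in Ad-Cre (log2 fold change 0.06, SE 0.09, adjusted p = 0.62), with overlapping groups. Phosphorylation is not measured here. None of the 14 JNK kinases, upstream kinases and scaffolds was called, and their median was -0.17.

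β cell transcription factors fell broadly. Of 18 tested factors 13 fell, against 5.48% of all genes, none rose, and none had a positive log2 fold change. Their median was -0.78, with -0.78 (F1), -0.52 (M1), -1.03 (M2) and -0.98 (F2) within preparations. In bulk samples fewer cells of a type and less RNA per cell cannot be told apart. Mafa, an activator of the insulin genes in mature β cells, measured 508, 444, 344 and 285 RPKM in Ad-LacZ and 222, 225, 52.7 and 81.8 RPKM in Ad-Cre (log2 fold change -1.66, SE 0.27, adjusted p = 0.0033). The groups did not overlap, yet the preparations differed within both groups, and in Ad-Cre M2 and F2 lay far below F1 and M1. The adjusted p of Mafa was 0.066 without the block. Neurod1, which β cells share with other endocrine cells, measured 82.9, 84.7, 133 and 159 RPKM in Ad-LacZ and 36.6, 48.8, 40.2 and 53.4 RPKM in Ad-Cre (log2 fold change -1.30, SE 0.17, adjusted p = 0.0016). Nkx2-2 measured 48.2, 46.3, 48.9 and 51.5 RPKM in Ad-LacZ and 25.8, 25.2, 17.5 and 20.6 RPKM in Ad-Cre (log2 fold change -1.11, SE 0.14, adjusted p = 0.0013). Myt1, which also acts in all endocrine cells, measured 11.9, 11.7, 17.9 and 17.6 RPKM in Ad-LacZ and 5.12, 5.51, 6.42 and 7.80 RPKM in Ad-Cre (log2 fold change -1.12, SE 0.10, adjusted p = 0.00042). None of these genes overlapped between groups.
Pdx1 measured 89.4, 109, 73.9 and 84.3 RPKM in Ad-LacZ and 76.5, 75.2, 26.1 and 41.8 RPKM in Ad-Cre (log2 fold change -0.80, SE 0.21, adjusted p = 0.019). Nkx6-1 measured 120.05, 115, 89.3 and 74.3 RPKM in Ad-LacZ and 78.0, 76.1, 35.8 and 48.8 RPKM in Ad-Cre (log2 fold change -0.77, SE 0.15, adjusted p = 0.0066). The groups overlapped in both because F1 and M1 in Ad-Cre stood near the lower Ad-LacZ libraries, and without the block the adjusted p was 0.20 for Pdx1 and 0.15 for Nkx6-1. Other factors that fell were St18 (-1.04), Rfx6 (-0.86), Isl1 (-0.81), Esrrg (-0.79), Mnx1 (-0.76), Pax6 (-0.71) and Rfx3 (-0.63). The whole list gave 9 falls without the block.

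The insulin genes themselves were not called. Ins2 measured 42737, 40027, 24209 and 34809 RPKM in Ad-LacZ and 49417, 38806, 17943 and 25975 RPKM in Ad-Cre (log2 fold change -0.17, SE 0.22, adjusted p = 0.56), and Ins1 measured 34425, 32316, 22583 and 21850.1 RPKM in Ad-LacZ and 29950.0, 28268, 12874 and 18034 RPKM in Ad-Cre (log2 fold change -0.37, SE 0.20, adjusted p = 0.19). The groups overlapped widely in both. In F1 the Ad-Cre library held more Ins2 than the Ad-LacZ library, and in M2 and F2 it held less. Iapp, the amylin gene, was at -0.29 (adjusted p = 0.26). Of the 18 hormone, processing and granule genes 3 fell and 1 rose, with a median of -0.26.
Ucn3, a peptide of mature β cells, had the largest fall of all genes, from 231, 330, 173 and 348 RPKM to 108, 129, 21.6 and 42.1 RPKM (log2 fold change -2.10, SE 0.34, adjusted p = 0.0035). Pcsk1, the prohormone convertase that cuts proinsulin first, measured 186, 187, 136 and 137 RPKM in Ad-LacZ and 116, 109, 55.6 and 67.5 RPKM in Ad-Cre (log2 fold change -0.93, SE 0.14, adjusted p = 0.0027). Slc30a8, the zinc transporter of the insulin granule, measured 289.7, 261, 222 and 251 RPKM in Ad-LacZ and 159.8, 182, 88.8 and 133 RPKM in Ad-Cre (log2 fold change -0.90, SE 0.15, adjusted p = 0.0043). The groups did not overlap in these 3 genes. Without the block the adjusted p was 0.087 for Pcsk1 and 0.068 for Slc30a8. Vgf, a granule peptide precursor, rose from 58.8, 38.2, 36.0 and 22.7 RPKM to 133, 65.9, 64.3 and 54.7 RPKM (log2 fold change 1.00, SE 0.12, adjusted p = 0.00096). It was higher in all 4 pairs although the groups overlapped, and its adjusted p was 0.11 without the block.

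Of 17 genes of glucose sensing, channels and receptors 7 fell and none rose (median -0.44), a count that was 2 without the block. G6pc2, the islet glucose-6-phosphatase, measured 978, 871, 679 and 632 RPKM in Ad-LacZ and 278, 256, 133 and 169.8 RPKM in Ad-Cre (log2 fold change -1.95, SE 0.15, adjusted p = 0.00025). Slc2a2, the glucose transporter GLUT2, measured 126, 130.2, 73.2 and 76.8 RPKM in Ad-LacZ and 61.0, 68.9, 18.3 and 32.7 RPKM in Ad-Cre (log2 fold change -1.27, SE 0.18, adjusted p = 0.002). Both had every Ad-Cre library below every Ad-LacZ library, and the adjusted p of Slc2a2 was 0.10 without the block. Scn9a (-1.05), Trpm5 (-0.93), the fatty acid receptor Ffar1 (-0.68), Adra2a (-0.64) and the sulfonylurea receptor Abcc8 (-0.61) also fell. Of 11 tested exocytosis genes 3 fell. Sytl4, the granule docking protein granuphilin, measured 118, 103, 83.5 and 85.9 RPKM in Ad-LacZ and 51.7, 50.1, 20.8 and 28.7 RPKM in Ad-Cre (log2 fold change -1.43, SE 0.17, adjusted p = 0.0011), and Rims2 (-1.04) and Exph5 (-0.74) fell by less. Among 9 tested genes that β cells normally keep low, or that mark dedifferentiation, Ldha (0.63) and Cd81 (0.61) rose, but the groups overlapped in both and 1 of them was called without the block.

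**Figure D2:**
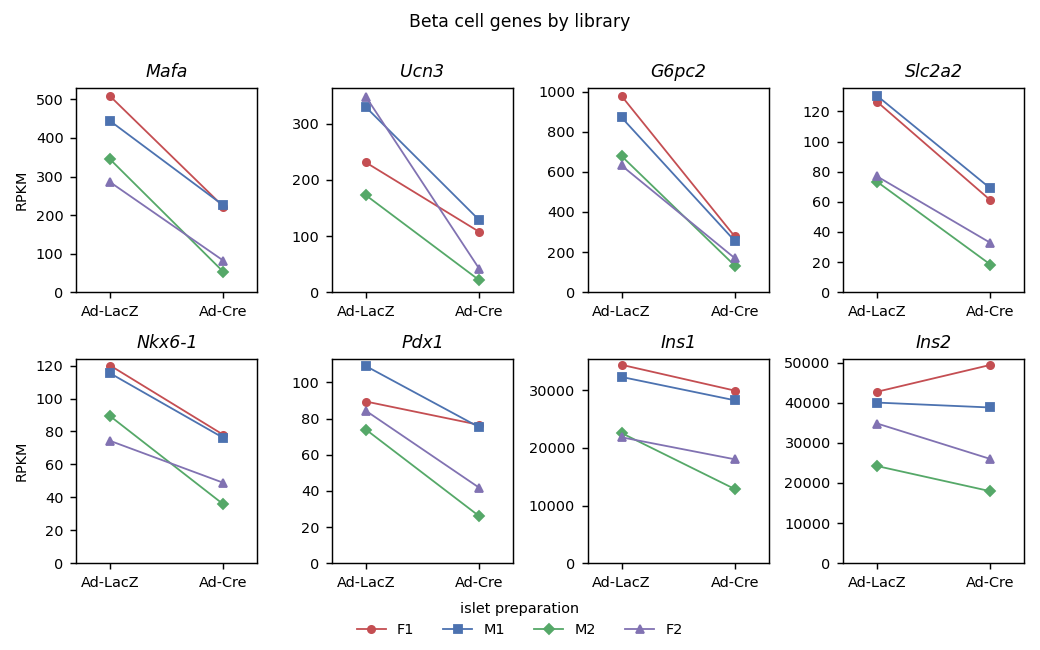
RPKM (vertical axis, linear, from 0) of 8 β cell genes in Ad-LacZ and Ad-Cre libraries, each line joining the pair of 1 islet preparation. All 4 lines fall for Mafa, Ucn3, G6pc2, Slc2a2, Nkx6-1 and Pdx1, whereas Ins2 rises in F1 and the 2 groups overlap for both insulin genes.

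The largest changes outside the lists held genes of varied function. C1qtnf1, a secreted C1q and TNF related protein, measured 2.12, 2.15, 2.87 and 2.88 RPKM in Ad-LacZ and 12.1, 9.95, 34.6 and 46.9 RPKM in Ad-Cre (log2 fold change 2.67, SE 0.25, adjusted p = 0.00042). Rgcc, a regulator of cell cycle, measured 0.146, 0.139, 0.568 and 1.1031 RPKM in Ad-LacZ and 6.57, 4.57, 7.72 and 12.7 RPKM in Ad-Cre (log2 fold change 2.55, SE 0.11, adjusted p = 2.4e-05). Slc2a6, a lysosomal sugar transporter, measured 0.794, 0.714, 0.934 and 0.688 RPKM in Ad-LacZ and 4.98, 4.90, 10.2 and 13.3 RPKM in Ad-Cre. The groups did not overlap in these genes. Slc2a6 was under 1 RPKM in all 4 Ad-LacZ libraries and so passed the filter on low values only through Ad-Cre, where it had to be higher, and its test is not given as support. The same holds for Tlcd2 below, and for the falls of H1f3 and Lrrtm2, which passed only through Ad-LacZ. Rgcc exceeded 1 RPKM in 1 Ad-LacZ library. Stbd1 (1.89), which tethers glycogen to membranes, and Tlcd2 (1.86) also rose, as did the small RNA genes Mir1938 (2.51) and Rnu3b1 (1.94). n-R5s100, a 5S ribosomal RNA copy, measured 17.7, 0.535, 18.3 and 0 RPKM in Ad-LacZ and 18.8, 40.9, 68.6 and 132 RPKM in Ad-Cre (log2 fold change 3.45, SE 0.91, adjusted p = 0.021). Reads of this gene cannot be told from those of its near-identical copies, which makes the value uncertain, and the groups were barely apart.
Among the largest falls, Slc4a10, a sodium bicarbonate transporter, measured 16.8, 17.9, 17.8 and 17.9 RPKM in Ad-LacZ and 3.43, 5.29, 2.56 and 3.26 RPKM in Ad-Cre (log2 fold change -2.03, SE 0.14, adjusted p = 0.00019). Akr1c14, an aldo-keto reductase, measured 13.6, 16.8, 20.4 and 15.1 RPKM in Ad-LacZ and 3.12, 4.93, 2.41 and 2.74 RPKM in Ad-Cre (log2 fold change -2.04, SE 0.17, adjusted p = 0.00028). Fmo1, a flavin monooxygenase, measured 8.21, 5.24, 6.30 and 10.4 RPKM in Ad-LacZ and 1.59, 0.732, 0.976 and 0.595 RPKM in Ad-Cre (log2 fold change -2.09, SE 0.18, adjusted p = 0.00028). Each was below its controls in every library. The linker histone genes H1f4 (-1.81) and H1f3 (-1.79) and Csn3 (-1.78), Tmem215 (-1.77), Hepacam2 (-1.74), Lrrtm2 (-1.74), Slitrk6 (-1.71), Adh1 (-1.71) and S100z (-1.61) completed the 15 largest falls together with Ucn3, G6pc2 and Mafa.

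Stress and metabolic genes beyond the ER rose in part. Of 15 NRF2 targets, antioxidants and metallothioneins 6 rose and 1 fell, with 3 and 1 without the block. Sqstm1, the autophagy receptor p62, measured 199.8, 203, 222 and 157 RPKM in Ad-LacZ and 632, 544, 593 and 653 RPKM in Ad-Cre (log2 fold change 1.64, SE 0.14, adjusted p = 0.00028). Hmox1, heme oxygenase, measured 28.5, 36.3, 67.7 and 31.9 RPKM in Ad-LacZ and 87.2, 72.1, 135 and 123 RPKM in Ad-Cre (log2 fold change 1.36, SE 0.16, adjusted p = 0.001). Nqo1, a quinone reductase usually induced with them, fell from 44.2, 30.9, 48.5 and 41.9 RPKM to 16.3, 14.2, 16.7 and 11.1 RPKM (log2 fold change -1.44, SE 0.14, adjusted p = 0.00055). Of 17 sterol synthesis genes 3 rose, led by Mvd, mevalonate diphosphate decarboxylase, at 3.44, 2.91, 4.00 and 3.29 RPKM in Ad-LacZ and 11.1, 10.9, 17.1 and 21.4 RPKM in Ad-Cre (log2 fold change 1.82, SE 0.13, adjusted p = 0.00020), with Fdps (0.98) and Insig1 (0.81) next. Of 13 cytosolic heat shock genes 2 rose, Bag3 (0.67) and Hspa1b (0.63, adjusted p = 0.21 without the block). Of 10 tested interferon-stimulated genes 2 rose, Bst2 (1.14) and Ifit3 (0.68), with overlapping groups for both, and 1 of the pair was called without the block. Ccne1, a cyclin of the G1 to S transition, rose by 0.99 as 1 of 18 replication and mitosis genes, against 5.63% of all genes.

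**Figure D3:**
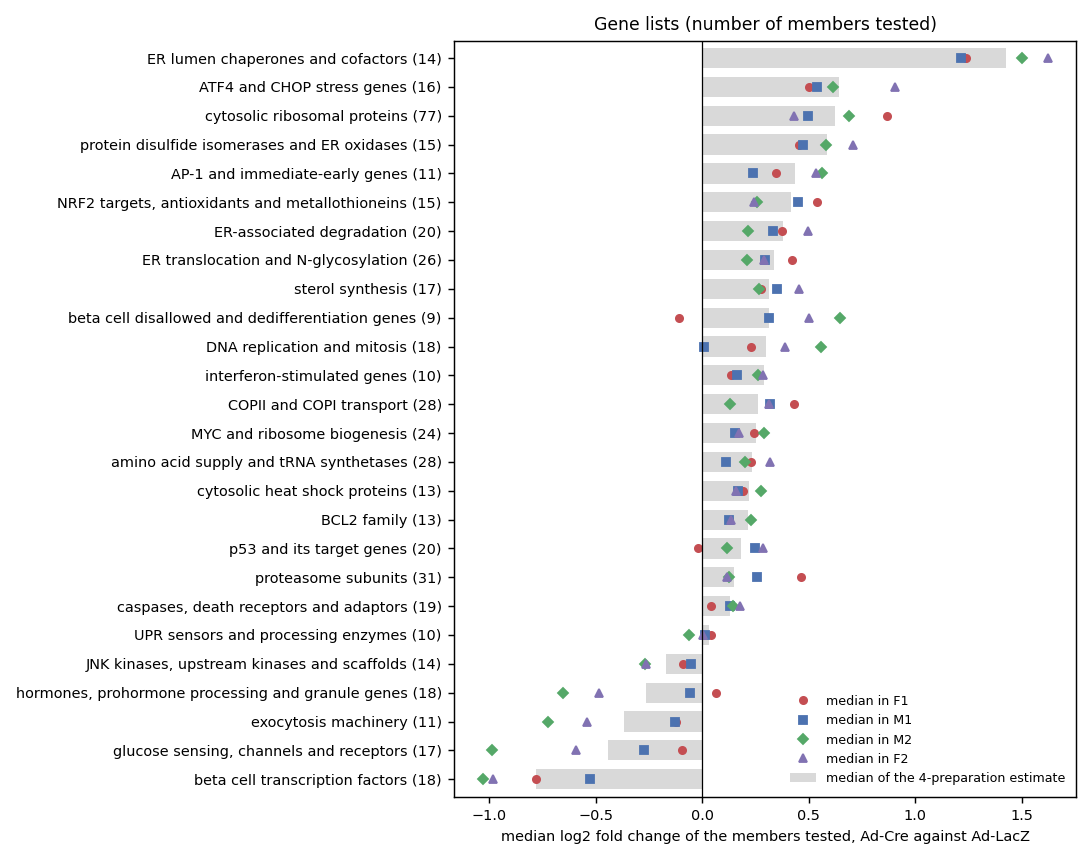
Median log2 fold change (horizontal axis) of the tested members of each of 26 gene lists, with bars for the estimate over 4 preparations and symbols for the medians within single preparations. ER chaperones reach 1.43 and lie above 1.2 in each preparation, and β cell transcription factors at -0.78 are the lowest.

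The 4 preparations responded to unequal degrees. By over 1.5-fold, 1001 genes were higher and 858 lower in F1, 544 and 303 in M1, 1153 and 1070 in M2, and 1341 and 1430 in F2. The median log2 difference of the 653 genes that rose was 0.61 in M1 and 0.99 in F2. The interaction of virus and sex label found 0 of 11590 genes at an adjusted p under 0.05 by limma, with 178 at an unadjusted p under 0.05, and 0 and 162 with the RPKM as deposited.

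Markers of other cell types moved with the Ad-Cre label in 2 of the preparations. Macrophage markers summed to 84.1, 91.4, 81.1 and 89.9 RPKM in Ad-LacZ and 84.7, 105, 236 and 204 RPKM in Ad-Cre, and 6 of 8 rose (C1qb, C1qc, Cd68, Lyz2, Ctss and Csf1r), 3 of them without the block. Fibroblast and stellate cell markers summed to 163, 274, 554 and 349 RPKM in Ad-LacZ and 177, 278, 1829 and 699 RPKM in Ad-Cre, and 2 of 5 tested rose (Col1a2 1.14 and Acta2 0.59), but 0 without the block. In both lists the sums differed between viruses by at most 0.19 on the log2 scale in F1 and M1 and by 1.00 to 1.72 in M2 and F2. β cell markers summed to 84724, 78754, 51906 and 60373 RPKM in Ad-LacZ and to 84383, 71021, 33474 and 47322 RPKM in Ad-Cre, and 6 of 9 fell, 2 of them without the block. Endothelial markers summed to 20.1 to 25.3 RPKM in 6 libraries and to 40.4 (Ad-LacZ) and 72.4 RPKM (Ad-Cre) in M2. None of the α cell (7 tested), δ cell (3), PP cell (1), duct (4), endothelial (6) and lymphocyte (1) markers was called. Among the duct markers, Krt8 (0.51, adjusted p = 0.014) and Krt18 (0.57, adjusted p = 0.0077) passed the adjusted p under the fold, with separate groups. Krt7 (-0.11) and Spp1 (-0.30) did not pass it. Gcg, the glucagon gene, measured 18702, 13268, 12334 and 12358 RPKM in Ad-LacZ and 20716, 12348, 13130.2 and 11497 RPKM in Ad-Cre with overlapping groups. Acinar markers summed to between 0.441 and 1.498 RPKM, and Cela2a, Cela3b and Prss2 were listed at 0 in all 8 libraries.

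The part of these cells in the results above was not tested. The fits below cannot settle it, because their preparations were picked after seeing the marker sums. With only F1 and M1, where those sums hardly differed, limma called 11 of the ER chaperones, 5 of the ERAD genes, 7 of the ATF4 and CHOP genes, 49 ribosomal protein genes and 9 of the β cell transcription factors (median -0.60). Glucose sensing genes were called in 4 cases (median -0.14), and no interferon-stimulated gene or disallowed gene was called. With only M2 and F2, the counts were 15 β cell transcription factors, 10 glucose sensing genes and 8 disallowed genes. Over all genes 1024 were called with only F1 and M1 and 2620 with only M2 and F2. The list counts of the 2 fits are therefore not on the same footing. These fits rest on 2 pairs each.

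**Figure D4:**
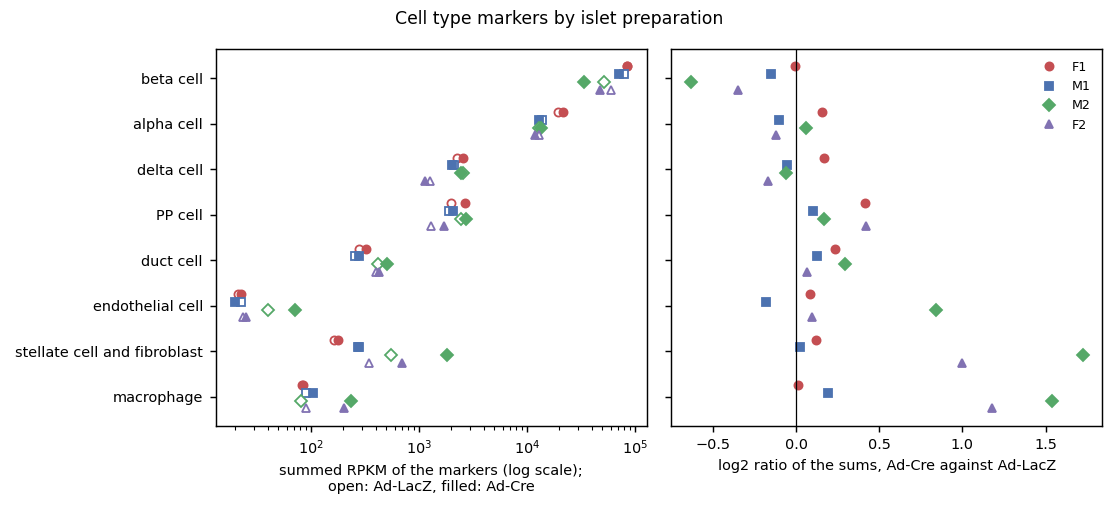
Left, summed RPKM (log axis) of the markers of 8 cell types in Ad-LacZ (open) and Ad-Cre (filled) libraries by preparation. Right, log2 ratio of those sums within each preparation. Macrophage and fibroblast ratios lie between 1.00 and 1.72 in M2 and F2 and at most at 0.19 in F1 and M1.

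The same viruses were also applied with JNK-IN-8, which shares the preparations but no library with the comparison above and offers the only like contrast in the series. In the column headers 15 of the 16 libraries carry the same prefix and lane code. The exception, F2 with Ad-Cre and the inhibitor, carries another prefix and lane code. It was also the shallowest, at 7.7 M reads against 14.6 to 25.4 M for the other inhibitor libraries. In a fit of all 16 libraries over 12274 genes, Ad-Cre against Ad-LacZ with the inhibitor gave 1224 higher genes (9.97%) and 1003 lower genes (8.17%). Of the 653 genes that rose without inhibitor 610 were positive and 488 called with it, and of the 635 that fell 634 were negative and 535 called. Their medians were 0.75 and -0.74 without and 0.93 and -0.81 with the inhibitor in this fit. Hspa5 was at 1.51 without and 1.93 with the inhibitor, Derl3 at 4.91 and 5.51, Creld2 at 3.57 and 4.19, Pdia4 at 2.99 and 3.46, and Herpud1 at 2.41 and 2.94. Ddit3 was at 2.51 and 2.72, and Cdkn1a at 1.76 and 1.90. Among the falls, Mafa was at -1.67 and -1.70, Ucn3 at -2.11 and -2.18, and G6pc2 at -1.96 and -2.32. Of the 14 ER chaperones 13 had the larger value with the inhibitor (median 1.42 without and 1.80 with), as had 75 of 77 ribosomal protein genes (0.61 and 0.92), 17 of 18 hormone and granule genes (-0.27 and 0.11) and 6370 of all 12274 genes. Of 10 interferon-stimulated genes 1 had the larger value (0.28 and -0.11). Fewer members were larger also among BCL2 family genes (3 of 13, medians 0.21 and -0.0047) and caspases, death receptors and adaptors (5 of 19, 0.13 and -0.095). The same held for AP-1 and immediate-early genes (2 of 11, 0.43 and 0.23) and ATF4 and CHOP genes (6 of 16, 0.63 and 0.49). The test of the difference between the 2 contrasts called 0 of 12274 genes at an adjusted p under 0.05 by limma, with 1426 at an unadjusted p under 0.05. Without the block it called 0, with 396 at an unadjusted p under 0.05. This does not show that the responses were alike. The library with the other prefix was then left out, a choice made after seeing the data. The contrast with the inhibitor gave 1148 higher and 895 lower genes of 12228, and the difference was called for 0 genes (1212 at an unadjusted p under 0.05). Hspa5 was then at 1.87 with the inhibitor, Derl3 at 5.44, Ddit3 at 2.58, Mafa at -1.78, Ucn3 at -1.98 and G6pc2 at -2.31. The larger value was with the inhibitor for 13 of 14 ER chaperones (median 1.76), 70 of 77 ribosomal protein genes (0.90) and all 18 hormone and granule genes (0.14), and for 1 of 10 interferon-stimulated genes (-0.031). It was with the inhibitor for 2 of 13 BCL2 family genes (0.0035) and 4 of 19 caspases, death receptors and adaptors (-0.040). For AP-1 and immediate-early genes the count was 2 of 11 (0.23), and for ATF4 and CHOP genes 3 of 16 (0.43).

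**Figure D5:**
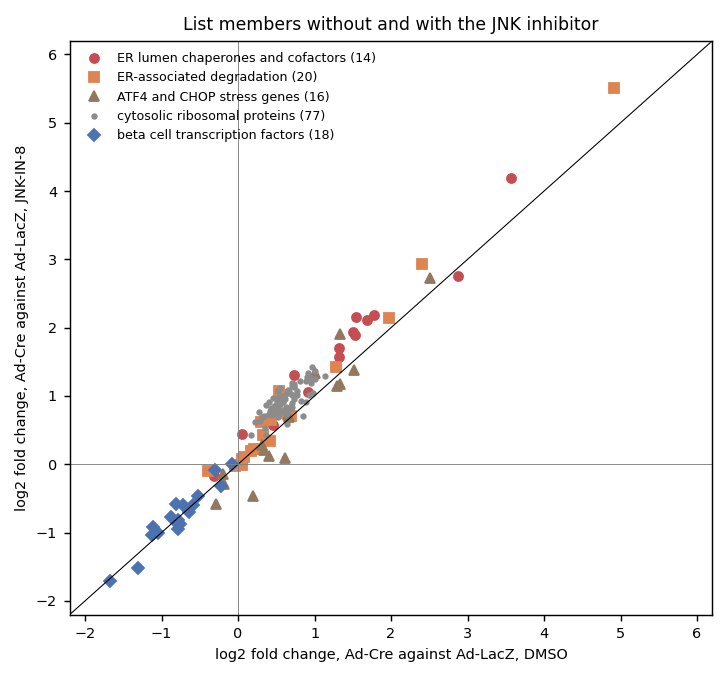
Log2 fold change of Ad-Cre against Ad-LacZ in DMSO (horizontal axis) and in JNK-IN-8 (vertical axis), each point 1 member of the lists named in the legend, with the line of equal values. Of 14 ER chaperones 13 lie above the line, Derl3 stands highest at 4.91 and 5.51, and β cell transcription factors lie at or below 0 on both axes.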

How the data were processed

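Poly(A) RNA of 16 mouse islet cell cultures was sequenced by the study as paired-end reads, and the 8 vehicle libraries were compared here. The authors deposited RPKM values per gene. The submitters' processing notes name GRCm38, and the step from counts to RPKM and the gene lengths are not given in the sources used here. Another 3 columns could be tied to no sample and stayed unused. RPKM are not counts, so they were scaled by trimmed mean of M-values factors (trim 30% of ratios, 5% of levels), a pseudocount of 1 was added, and genes that exceeded 1 RPKM in 4 or more libraries were kept. The log2 values went into limma 3.58.1 under R 4.3.3 (linear model with preparation as a block, empirical Bayes with an intensity trend). Genes were called at a Benjamini-Hochberg adjusted p under 0.05 and a fold change above 1.5. Tables were made with Python 3.11.15. The procedure was tested on simulated data.

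The pairing follows from the parallel cultures of 1 preparation, and residuals of paired libraries correlated at 0.489 to 0.721 (other pairs, mean -0.20). The labels do not say whether preparations were separate experiments, and p-values measure the spread between these 4 pairs. Steps between low RPKM values gave the depth, and 93.3% to 94.6% of low values were whole reads within 0.02.

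Named genes were those the study measured or names, the 15 largest rises and falls moving alike in all pairs, the members called in each list (at most 4, plus the highest member not called) and cell type markers, 153 in all. A single listed marker is not reported here. A further 46 were named after their values were seen. Members and lists were chosen with earlier results of these data known. Lists were described by counts and medians and not tested. Alternatives were other pseudocounts, filters and scalings, no block, no trend, all 16 libraries and each preparation left out.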

Additional observations from a re-analysis of the deposited data

Results flagged for a closer look

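In 29 of 398 sets of 4 values (199 named genes in each of 2 groups), the highest or lowest library stood apart from the other 3 by more than Dixon's test allows at its 95% level. Chance alone marks about 1 in 20 sets, so most single entries carry little weight, and many of these genes share cells and libraries.

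Endothelial markers stood apart in preparation M2. In Ad-Cre M2, Cdh5 measured 17.8 RPKM (nearest other library 4.93), Emcn 9.93 (3.18), Esam 6.80 (3.46), Kdr 7.23 (3.50), Pecam1 9.94 (3.72) and Plvap 19.7 (6.54). In Ad-LacZ M2, Pecam1 measured 5.68 RPKM (3.47) and Plvap 11.1 (5.21). M2 was the highest library of both groups for each of these genes, though in Ad-LacZ only Pecam1 and Plvap stood apart. None of the endothelial markers was called between the viruses.

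Other libraries of M2 stood apart in single genes. In Ad-LacZ M2, Cd81 measured 34.7 RPKM (22.6), Phlda3 28.1 (11.5), Ier3 14.6 (8.22), Stbd1 7.42 (4.81) and Rpl12 6.05 (5.78), all high, while Derl3 was low at 1.13 (2.08). In Ad-Cre M2, Egr1 was high at 6.77 RPKM (4.86), and Fkbp2 at 131 (179.9), Krt7 at 33.5 (43.4) and Sqle at 34.1 (39.2) were low.

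In preparation F1, Vgf at 133 RPKM (65.9), Psmb4 at 101 (82.0) and Tlcd2 at 6.92 (4.20) were high in Ad-Cre and Csn3 was low at 0.709 (1.14). In Ad-LacZ F1, Gcg at 18702 RPKM (13268) and Csf1r at 1.79 (1.498) were high and Slc4a10 was low at 16.8 (17.8). In M1, Mir1938 at 3.77 RPKM (8.41) and Srm at 46.3 (56.7) were low in Ad-Cre. In Ad-LacZ F2, Stt3b at 20.2 RPKM (26.3) and Txndc5 at 36.2 (43.0) were low. The values in brackets are those of the nearest other library of the same group.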

How the results depend on the processing

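The counts of genes that rose and fell were 653 and 635. A pseudocount of 0.1 gave 889 and 965, no filter 511 and 526, a filter at 0.1 RPKM 642 and 644, the RPKM as deposited 612 and 632, quantile normalization 568 and 660, no trend 652 and 634, and all 16 libraries 581 and 616. Without the replicate block, the unpaired fit gave 460 and 482, all of them shared with the 1288 calls, and of the named genes 38 no longer passed the adjusted p. Leaving out 1 preparation gave 491 to 838 rises and 465 to 861 falls, lowest without F2 and highest without M1. With only M2 and F2, chosen after seeing the data, 1500 rose and 1120 fell, of which 1200 were shared with the 1288, and with only F1 and M1 1024 were called, of which 797 were shared. The cause of these differences was not tested. Hspa5 kept its direction and passed the adjusted p in each of these settings, from 1.09 (quantile normalization) to 1.78 (only M2 and F2), and from 1.38 to 1.61 over the preparations left out in turn. The test of the difference with and without inhibitor called 0 to 1 genes over those, the 1 without F2, and 0 without the Ad-Cre library of F2 with the inhibitor alone. No named gene reversed. Low genes rest on few reads, and their fold changes shrink toward 0 with the pseudocount.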

Other observations

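The gene classes below were chosen after their values were seen, and no test was made over them. Of 34 histone genes tested 10 fell and none rose (median log2 fold change -0.45), against falls in 5.48% of all genes. The 34 include Hist1h2al, which is listed as a processed pseudogene and was not called. Among the 10, H4c6 and H2ac6 were low in Ad-Cre, with means of 0.718 and 1.03 RPKM. The linker histones H1f2, H1f3 and H1f4, which compact chromatin between nucleosomes, all fell. H1f3, counted among the 10, was under 1 RPKM in all 4 Ad-Cre libraries and passed the filter only through Ad-LacZ. Its fall is not given as support. H1f2 measured 199.9, 154, 181 and 146 RPKM in Ad-LacZ and 53.7, 45.9, 65.8 and 56.6 RPKM in Ad-Cre in the order F1, M1, M2 and F2 (log2 fold change -1.60, SE 0.11, limma's adjusted p = 0.00019). No Ad-Cre library came near a control library in any of these 3 genes. The replication-independent linker histones H1f0 and H1f10 were not called (median -0.37). The libraries were poly(A) selected, and most histone cluster mRNAs lack a poly(A) tail.

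Hosts of small nucleolar RNAs, whose exons code for no protein, rose in 4 of 14 cases and were positive in 13 (median 0.44). The counts of risers in this paragraph stand beside a rise of 5.63% of all genes. Snhg8 measured 7.76, 7.09, 8.61 and 8.69 RPKM in Ad-LacZ and 24.5, 15.3, 24.9 and 28.7 RPKM in Ad-Cre (log2 fold change 1.40, SE 0.11, limma's adjusted p = 0.00028), and Zfas1 (0.94), Snhg15 (0.93, adjusted p = 0.071 without the block) and Snhg18 (0.89) also rose. Of 20 pseudogenes named for a ribosomal protein 15 rose, 8 of them without the block (median 0.66), close to the 0.63 of the ribosomal protein genes whose reads they can share. Of 11 copies of 5S ribosomal RNA 6 rose, 2 of them without the block, and all 11 were positive, but the median within preparations was 0.16 (F1), 2.40 (M1), 0.11 (M2) and 2.27 (F2). Rn7sk, a small nuclear RNA that restrains transcription elongation, measured 8.25, 8.46, 19.4 and 19.7 RPKM in Ad-LacZ and 19.1, 19.0, 31.3 and 65.9 RPKM in Ad-Cre (log2 fold change 1.14, SE 0.15, limma's adjusted p = 0.0015), with overlapping groups and an adjusted p of 0.073 without the block. Values of genes with many copies are uncertain, as are those of small RNAs in poly(A) selected libraries.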
